A study of Mus musculus with 12 samples.

Results

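Phospholipases cut the fatty acids or the head groups from membrane and surfactant phospholipids. The genes described here encode the secreted, cytosolic, lysosomal and patatin-like phospholipases A, the phospholipase D family and the acyl-protein thioesterases named after lysophospholipases, 38 genes of the 21759 with a symbol on the array. They were taken by a rule on names, set with earlier results of these data known. Every symbol that begins with Pla2g, Pld or Pnpla and a digit, or with Lypla, was taken, together with Pla1a. Only Pld2 was read by more than 1 probe set, which makes 39 probe sets, and of these the brighter one over the 12 arrays stood for the gene.

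Lung RNA of female mice on a C57BL/6 background was measured, 1 array per sample. The labels name the left lung as its source, whereas the study's RNA methods name the right. Obese db/db mice, whose leptin receptor lacks its long form, received an isotype control antibody and were exposed to room air (4 arrays, the air group) or to O3 (4 arrays, the O3 group). Further db/db mice received an antibody against the cytokine IL-17A before O3 (3 arrays, numbered 1, 2 and 4, the anti-IL-17A group). A single array came from a lean wildtype (WT) mouse, which had the isotype antibody and O3. Exposure was at 2 ppm for 3 h in the O3 groups, lungs were taken 24 h later, and the mice were 6 weeks old when bought and 10 weeks old when studied. The receptor defect is in every cell of db/db mice, a WT array from air is not analysed here, nor is an anti-IL-17A group in air. Whether each array was a separate animal is not stated, so p-values measure the spread between these arrays, which may be technical.

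A phospholipase A1 or A2 releases a fatty acid and leaves a lysophospholipid, and the arachidonic acid released in this way feeds the synthesis of prostaglandins and leukotrienes. Phospholipase D instead releases the head group and leaves phosphatidic acid, a signaling lipid. Patatin-like enzymes act on phospholipids or on stored triglycerides. In the lung, such enzymes are known for turnover of surfactant, which consists mainly of phospholipids, and for making lipid mediators in inflamed airways.

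Signals are log2 values after RMA, so a difference of 1 is a doubling in signal, and the signals of different genes are not an order of abundance because each probe set binds differently. A gene was taken as above background on an array when its signal exceeded the 95th percentile of 1310 olfactory and vomeronasal receptor genes on that array, which lay between 3.91 and 4.19. The mean signal of 7 lung epithelial genes was between 9.96 and 10.41 on every array. Replicate 1 of the anti-IL-17A group stood apart, with a mean correlation with the other arrays of 0.947 against 0.973 to 0.982 for the rest. The brown fat gene Ucp1 read 10.53 on that array, 10.20 in replicate 4 of the O3 group, 10.12 in replicate 3 of the air group and at most 5.08 elsewhere. For Pla1a, Pla2g16, Pla2g4e, Pnpla1 and Pnpla2 and for the overlap of O3 and air arrays, values without these 3 arrays are given as well, an alternative chosen after the values were seen. In such bulk samples, fewer cells of a type and less RNA per cell cannot be told apart.

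Of the 38 genes, 21 were above background on all 12 arrays (55.3%, against 62.7% of all genes), 11 on some arrays and 6 on none. The enzymes read in every lung included all 3 acyl-protein thioesterases, 5 of 6 members of the phospholipase D family, 6 of 8 patatin-like enzymes, the lysosomal enzyme Pla2g15 and Pla2g16. Of the 6 cytosolic group IV enzymes only Pla2g4a, and of the 11 secreted A2 enzymes only Pla2g1b, Pla2g2e and Pla2g12a, were above background on every array. The 6 genes above background on no array were Pla2g2c, Pla2g2f, Pla2g5, Pla2g4c, Pld5 and Pnpla5. O3 replicate 4 had 32 members above background, against 24 to 27 on every other array. Its background level, 3.91, was the lowest, but anti-IL-17A replicate 4, next at 3.92, had 27 members above it.

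**Figure D1:**
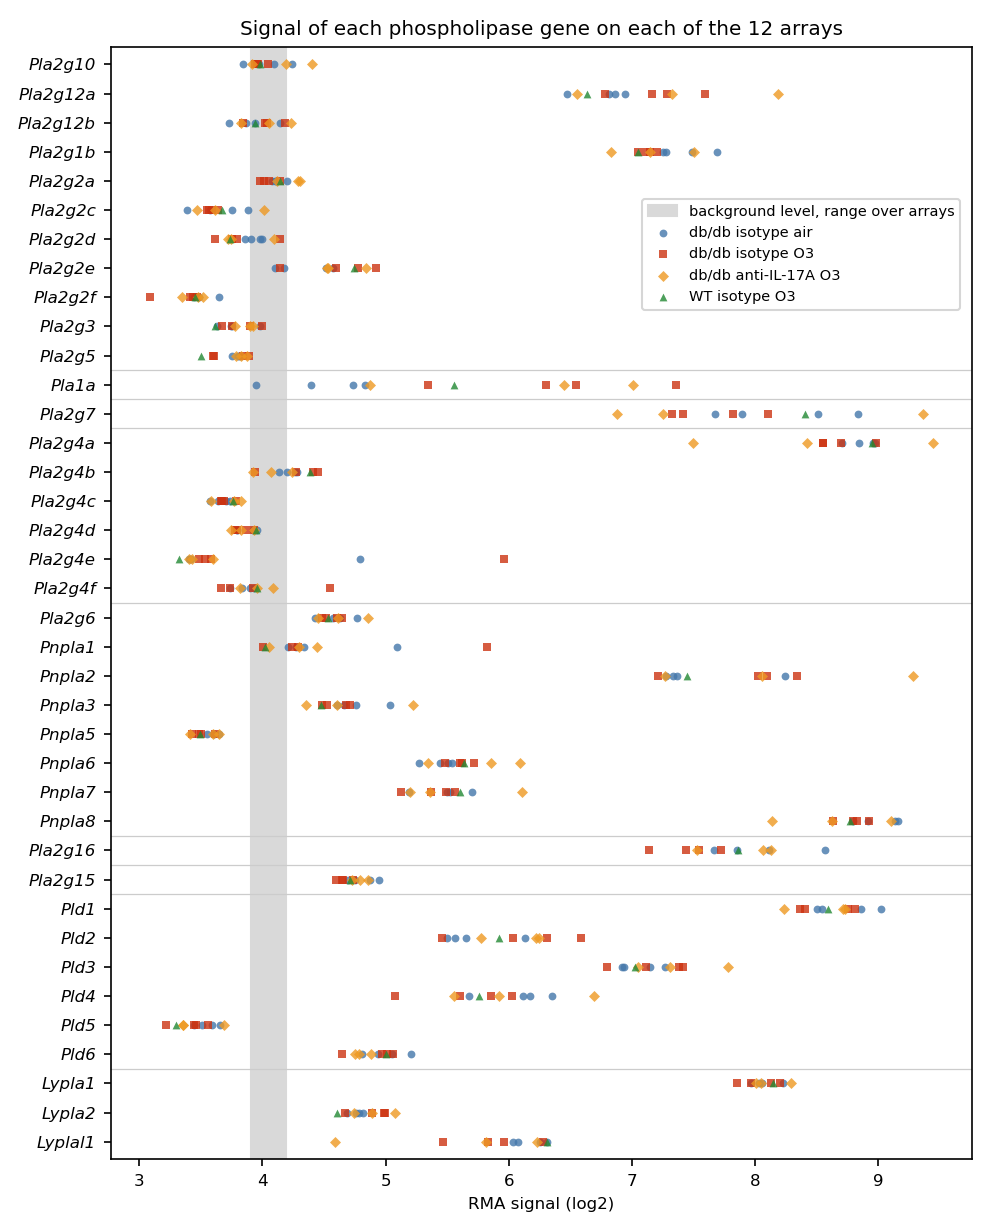
Log2 RMA signal (x axis) of each of the 38 genes (y axis, ordered by enzyme class, with grey lines between classes) on each of the 12 arrays, with color and symbol giving the group and the grey band spanning the background levels of the arrays, 3.91 to 4.19. Most secreted and group IV enzymes sit at or near the band, and Pla1a is the gene whose air and O3 arrays lie farthest apart.

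The O3 and air groups of db/db mice were compared to find which of these enzymes differed a day after exposure. No member was called by limma at a Benjamini-Hochberg adjusted p under 0.05, where 1.06% of all genes were (0.597% higher, 0.46% lower), and at an unadjusted p under 0.05 there were 2 members and 3294 of all genes. The member nearest to the threshold was Pla1a, which was higher in signal after O3 in all 4 arrays and which alone fell under an adjusted p of 0.1, a limit that 3.03% of all genes passed. The air and O3 arrays did not overlap for 2 members, Pla1a (higher) and Pla2g1b (lower), against 15.4% of all genes (8.78% higher, 6.65% lower). Without the 3 arrays high in Ucp1, 3 arrays a group were left, and they did not overlap for 2 members that were higher after O3, Pla1a and Pla2g4e (14% of all genes), and 5 that were lower, Lyplal1, Pla2g16, Pla2g1b, Pla2g2d and Pla2g4a (12.8%). The difference was below 0.5 in size for 35 of 38 members. Its median was -0.06 over the members and 0.00 over all genes, with 15 members positive and 23 negative. The 95% confidence interval lay within 1 log2 unit on either side of 0 for 31 members.

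**Figure D2:**
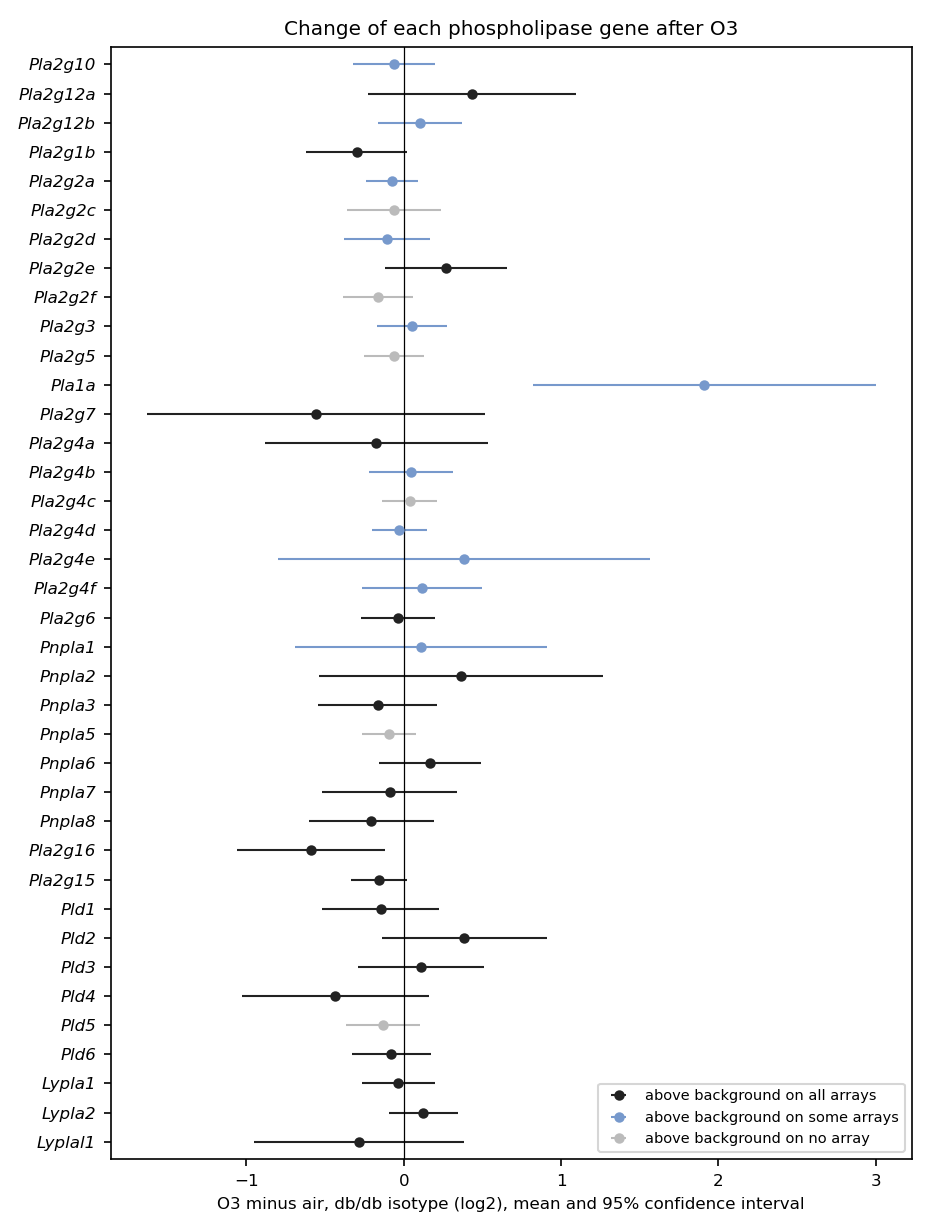
Difference in log2 signal between the O3 and air groups (x axis, point: limma estimate, bar: 95% confidence interval, 4 arrays each) for each of the 38 genes (y axis), with color showing on how many arrays the gene was above background. Pla1a at 1.91 lies apart from the other members, and the intervals of Pla1a and Pla2g16 alone leave out 0 before adjustment over all genes.

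Pla1a encodes a secreted phospholipase A1 that acts on phosphatidylserine and leaves lysophosphatidylserine. Its signal was 4.73, 3.95, 4.83 and 4.40 in the 4 air arrays and 6.30, 5.34, 7.36 and 6.55 in the O3 arrays. The lowest O3 array was thus above the highest air array, and air replicate 2 was the only array on which the gene was not above background. The mean was 4.48 ± 0.40 (SD, n = 4) in air and 6.39 ± 0.83 (SD, n = 4), that is higher by 1.91 (SE 0.49, 95% confidence interval 0.82 to 3.00) or 3.76-fold. Adjusted over all genes, limma gave p = 0.0966, which misses the threshold of 0.05, and the two-sided exact permutation p of 0.0286 is the smallest that 70 splits of 8 arrays can give.

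The call for Pla1a depended on which arrays shared the estimate of the spread. When only the 8 air and O3 arrays were fitted, it passed at an adjusted p of 0.0209 in limma, as did 7.84% of all genes. In that fit the adjusted p for Pla1a was 0.0626 without air replicate 2, 0.0607 without air replicate 4, and between 0.00418 and 0.0496 without any 1 of the other arrays. Without O3 replicate 2, Pla2g12a passed beside Pla1a in that fit, as did 12.4% of all genes. With array weights the limma adjusted p of Pla1a was 0.0129, where 11.4% of all genes passed. Without the 3 arrays high in Ucp1 the difference was 1.97 (adjusted p = 0.175 in limma).

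With anti-IL-17A, the O3-exposed lungs read 6.45, 4.87 and 7.01 for Pla1a in replicates 1, 2 and 4. Replicates 1 and 4 lay inside the range of the isotype O3 arrays, and replicate 2 lay below that range, just above the highest air array at 4.83. The difference from isotype antibody was -0.28 (SE 0.53, limma adjusted p = 0.904, 95% confidence interval -1.45 to 0.90), an interval more than a log2 unit wide on its negative side. The WT array read 5.56, inside the range of the db/db O3 arrays.

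Receptors for lysophosphatidylserine, the product of the enzyme, were looked at beside it, in a choice made after values were seen. The O3 minus air difference was -0.10 for Gpr34 (SE 0.16), -0.21 for P2ry10 (SE 0.29) and -0.01 for Gpr174 (SE 0.36). The smallest limma adjusted p of the 3 receptors was 0.799.

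**Figure D3:**
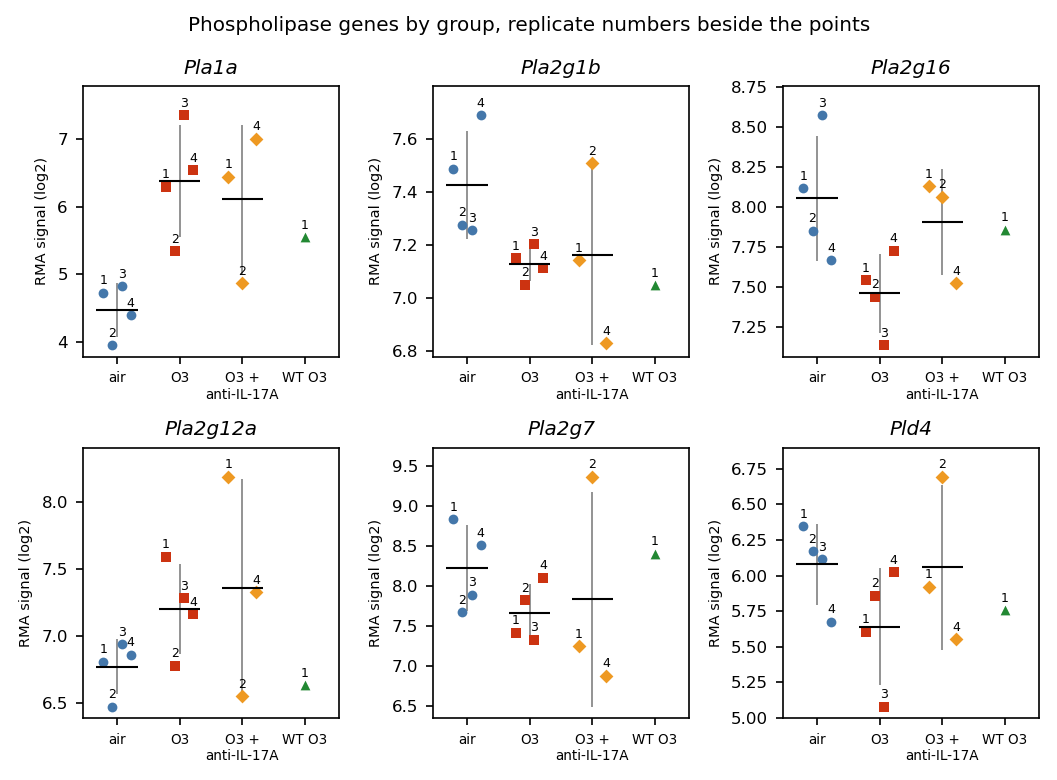
Log2 RMA signal (y axis, a separate scale for each gene, not starting at 0) of 6 genes by group (x axis), with each array as a point beside its replicate number, the group mean as a black line and 1 SD as a grey line (n = 4, 4 and 3, and a single WT array). Pla1a and Pla2g1b are the genes whose air and O3 arrays do not overlap, and replicate 2 of the anti-IL-17A group is low for Pla1a and Pla2g12a and high for Pla2g7 and Pld4.

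Among the secreted A2 enzymes, Pla2g1b, the enzyme of pancreatic juice that is also made in lung, read 7.49, 7.28, 7.26 and 7.69 in air and 7.15, 7.05, 7.20 and 7.11 after O3. The groups did not overlap, though the gap between the highest O3 array and the lowest air array was narrow. The difference was -0.30 (SE 0.15, 95% confidence interval -0.62 to 0.02), with a limma adjusted p of 0.369 and a two-sided exact permutation p of 0.0286, again the smallest possible. Of the anti-IL-17A arrays, replicate 1 at 7.14 lay inside the O3 range, replicate 2 at 7.51 inside the air range and replicate 4 at 6.83 below both, and the WT array read 7.05. The mean of 3 pancreas genes was between 3.69 and 4.21 on all arrays. Of these, Prss1, the gene of trypsinogen, was above background on no array, Cpa1 was near background at 3.75 to 4.21, and Cela1 was above it on every array at 4.38 to 5.45. The part of such tissue in the Pla2g1b signal was not tested.

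Pla2g12a encodes an atypical secreted enzyme that is present in many tissues. It read 6.81, 6.47, 6.94 and 6.86 in air, 7.59, 6.78, 7.28 and 7.17 after O3, and 8.19, 6.55 and 7.33 with anti-IL-17A. Of the O3 arrays only replicate 2 lay inside the air range, and 2 of the anti-IL-17A arrays lay above that range, with replicate 2 inside it. The O3 difference was 0.43 (SE 0.30, limma adjusted p = 0.545). Pla2g2e, which in mouse fat is induced by obesity, was close to background at 4.11, 4.57, 4.17 and 4.51 in air and 4.14, 4.78, 4.60 and 4.92 after O3, with overlapping groups and a difference of 0.27 (SE 0.18).

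The other secreted A2 enzymes were dim. The group II genes Pla2g2c, Pla2g2f, Pla2g2d, Pla2g2a and Pla2g2e and the group V gene Pla2g5 lie in 1 neighborhood on mouse chromosome 4 in the RefSeq annotation, where Pla2g2a is listed as a transcribed pseudogene. Pla2g2a, which makes the enzyme of inflamed tissues in other strains, was above background on 11 arrays at 3.98 to 4.30, and it was 0.19 higher with anti-IL-17A than with isotype antibody (SE 0.08, limma adjusted p = 0.833). Pla2g2d, an enzyme of resident antigen-presenting cells, and Pla2g3, the homolog of bee venom phospholipase, were each above background on 1 array, O3 replicate 4. Pla2g10, an airway epithelial enzyme, was above background on 6 arrays, and Pla2g12b, which lacks catalytic activity, on 5. Among the dim secreted genes the O3 difference ran from -0.16 for Pla2g2f to 0.10 for Pla2g12b. Pla2g5, known from macrophages and airway epithelium, did not exceed 3.89 on any array.

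Pla2g7 encodes the secreted acetylhydrolase that inactivates platelet-activating factor and is made by macrophages. Its signal was 8.83, 7.68, 7.89 and 8.51 in air and 7.42, 7.82, 7.33 and 8.10 after O3. The anti-IL-17A arrays held both the highest and the lowest values of the study, with 9.36 in replicate 2 against 7.25 in replicate 1 and 6.88 in replicate 4, and the WT array read 8.41. The air, O3 and anti-IL-17A arrays overlapped, the WT array lay above all 4 O3 arrays, and the O3 difference of -0.56 (SE 0.48) had a limma adjusted p of 0.649.

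Neutrophil genes were high on the same arrays as Pla2g7. The mean of all 6 neutrophil genes was 9.78 and 9.66 in air replicates 1 and 4, 9.67 in anti-IL-17A replicate 2 and 9.70 in the WT array, and between 6.90 and 8.41 on the other 8. Those 4 arrays were also the 4 with the highest Pla2g7 signal. Monocyte and interstitial macrophage genes had their highest mean, 7.41, in anti-IL-17A replicate 2 as well, against 5.83 to 6.90 elsewhere. For alveolar macrophage genes, the mean of the 4 measured was 6.78 to 7.27 on the 4 arrays highest in Pla2g7. Elsewhere it ranged from 6.47 to 7.38, with the highest in O3 replicate 4. No neutrophil gene of the list was called between O3 and air, though the list had a median O3 difference of -0.94. The part of neutrophils or macrophages in the Pla2g7 signal was not tested.

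Among the cytosolic group IV enzymes, Pla2g4a, the cytosolic A2 enzyme that releases arachidonic acid from membranes, was well above background throughout. It read 8.98, 8.71, 8.96 and 8.84 in air, 8.56, 8.55, 8.70 and 8.98 after O3 and 8.95 in the WT array. These groups lay within about the same narrow band. The anti-IL-17A arrays did not, with 7.50 in replicate 1, 9.44 in replicate 2 and 8.42 in replicate 4, so that this group held both extremes. The O3 difference was -0.17 (SE 0.32, limma adjusted p = 0.854), and that of anti-IL-17A from isotype antibody was -0.24 (SE 0.35, limma adjusted p = 0.877).

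The other group IV genes were at or near background. Pla2g4c stayed between 3.58 and 3.82, and Pla2g4d, known from keratinocytes, was above background on 2 arrays with a highest value of 3.96. Pla2g4f was also above background on 2 arrays and read 4.55 in O3 replicate 4 and at most 4.08 elsewhere. The probe set of Pla2g4b is annotated to the overlapping genes Jmjd7 and Gm28042 as well, so its signal, above background on 10 arrays, cannot be assigned to it alone.

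Pla2g4e encodes a calcium-dependent N-acyltransferase described in mouse heart and skeletal muscle, and Pnpla1 a patatin-like enzyme that makes the acylceramides of the skin barrier in keratinocytes. Pla2g4e read 5.96 in O3 replicate 4, 4.80 in air replicate 3 and 3.32 to 3.60 on the other 10 arrays, where it was not above background. Pnpla1 read 5.82 and 5.10 on the same arrays and at most 4.44 elsewhere. Both genes were therefore high on 1 array of the O3 group and 1 of the air group, and the groups overlapped. The O3 difference was 0.38 for Pla2g4e (SE 0.53) and 0.11 for Pnpla1 (SE 0.36), with limma adjusted p-values of 0.795 and 0.925. Such a pair of highest arrays was found for 2.59% of all genes. Without the 3 arrays high in Ucp1 the difference of Pla2g4e was 0.12 (SE 0.07, limma adjusted p = 0.409), with both groups under background and without overlap. That of Pnpla1 turned to -0.09 (SE 0.11, limma adjusted p = 0.685), with overlap.

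Genes of squamous epithelium and of skeletal muscle were high on the same arrays. They were listed after the values were seen. Krt13, a keratin of stratified epithelium such as that of the esophagus, read 10.64 in O3 replicate 4 and 10.33 in air replicate 3 against 3.85 to 6.13 elsewhere. The mean of all 8 squamous genes was 8.77 and 8.04 on these arrays and 3.83 to 4.72 on the other 10. Acta1, the actin of skeletal muscle, read 9.35 and 9.01 against 4.52 to 5.26, and the mean of all 5 skeletal muscle genes was 6.79 and 5.97 against 3.75 to 4.16. In the WT array 4 of the 8 squamous and 4 of the 5 muscle genes were not above background. The part of such tissues and cells in the Pla2g4e and Pnpla1 signals was not tested.

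The promoters of these 2 genes, which were read together on the same 2 arrays, are shown as 300 bases from 250 before to 50 after the start, from RefSeq on GRCm38.p6, in which 33 of the 38 genes had a promoter. Capitals mark matches to CANNTG, the E-box. Pla2g4e lies on the minus strand (chr2:120245286-120245585) and Pnpla1 on the plus strand (chr17:28858161-28858460), and both are printed 5′ to 3′ along the gene.
Pla2g4e: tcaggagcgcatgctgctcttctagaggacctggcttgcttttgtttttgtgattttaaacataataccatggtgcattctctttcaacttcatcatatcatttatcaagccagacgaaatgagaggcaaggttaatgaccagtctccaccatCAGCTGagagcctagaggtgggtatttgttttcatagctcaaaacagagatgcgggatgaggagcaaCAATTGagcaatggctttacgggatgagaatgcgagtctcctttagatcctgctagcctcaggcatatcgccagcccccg
Pnpla1: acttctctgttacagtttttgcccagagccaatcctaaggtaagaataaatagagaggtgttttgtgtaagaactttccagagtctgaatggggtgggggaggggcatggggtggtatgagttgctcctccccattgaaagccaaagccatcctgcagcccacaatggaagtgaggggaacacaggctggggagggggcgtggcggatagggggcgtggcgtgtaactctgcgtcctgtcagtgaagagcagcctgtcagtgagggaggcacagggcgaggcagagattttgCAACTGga

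CANNTG, which reads the same on both strands, matched at positions 154 and 221 of the Pla2g4e window and at position 293 of the Pnpla1 window, and it is in 72.3% of all 32851 promoters of this length. CCAAT was found on either strand at position 29 of the Pnpla1 window but not in that of Pla2g4e (37.4% of all promoters). TGANTCA (7.81%), TATAAA (13.6%) and GGGCGG (35.7%), searched on both strands, were in neither window. A match in these letters is a description of the sequence and not a binding site.

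Of the other patatin-like enzymes, Pnpla2 encodes adipose triglyceride lipase, which starts the breakdown of stored fat. It read 7.37, 7.28, 8.25 and 7.34 in air, 8.10, 7.21, 8.02 and 8.34 after O3, 9.28, 7.27 and 8.06 with anti-IL-17A and 7.45 in the WT array. Its highest 3 arrays were the 3 arrays high in Ucp1, as was the case for Pla2g4e and Pnpla1 and for 1.77% of all genes. In anti-IL-17A replicate 1, however, Pla2g4e was under background at 3.60, against 3.59 on the next array. Pnpla1 read 4.44 there, against 4.34 on the next. For Pnpla2 the groups overlapped, and the O3 difference was 0.36 (SE 0.41, limma adjusted p = 0.742), or 0.45 (SE 0.27, limma adjusted p = 0.407) without the 3 arrays high in Ucp1. The mean of all 7 adipocyte genes was 7.39 in air replicate 3, 7.04 in anti-IL-17A replicate 1 and 6.66 in O3 replicate 4, against 5.48 to 6.49 on the other arrays. The mean of all 5 brown adipocyte genes was between 6.82 and 7.22 on these 3 arrays, against 4.46 to 4.90. Cardiac muscle genes had a mean of 9.83 in anti-IL-17A replicate 1, their highest, and 8.12 in O3 replicate 2, their lowest. Pnpla2 was highest and lowest on these arrays too. In O3 replicate 4 and air replicate 3 the cardiac mean was 9.26 and 9.22, against 8.12 to 9.38 on the remaining arrays. The part of fat or cardiac muscle in the Pnpla2 signal was not tested.

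**Figure D4:**
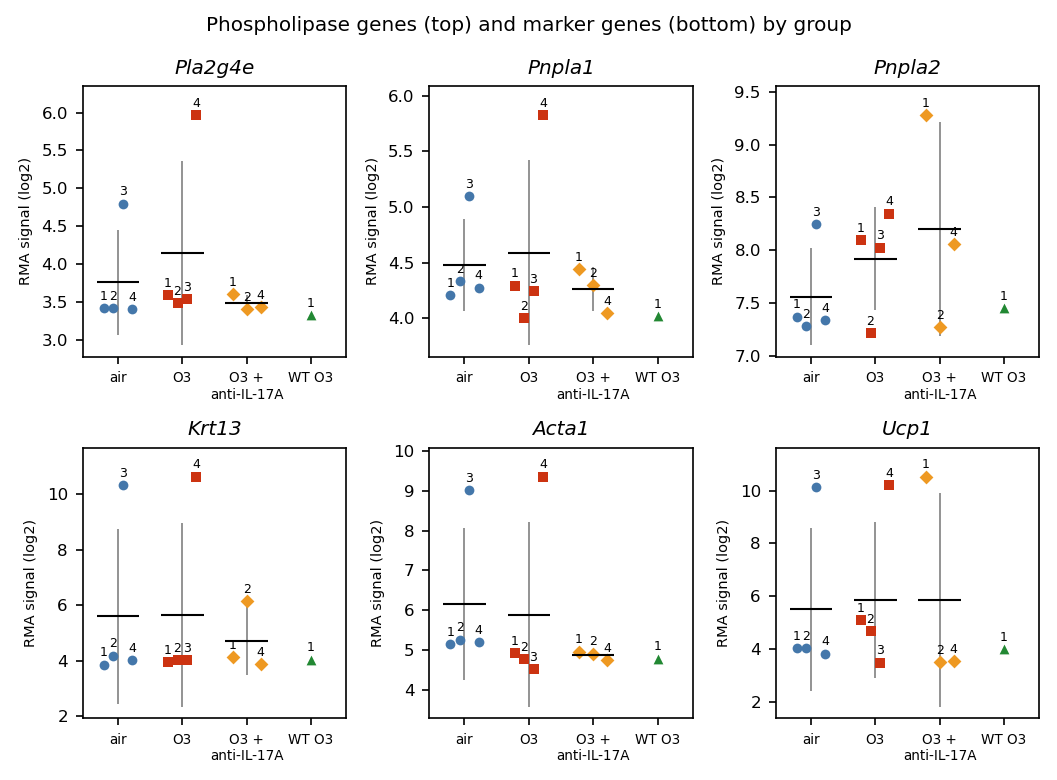
Log2 RMA signal (y axis, a separate scale for each gene, not starting at 0) of 3 phospholipase genes (top row) and of Krt13, Acta1 and Ucp1 (bottom row) by group (x axis), with each array as a point beside its replicate number, the group mean as a black line and 1 SD as a grey line. Pla2g4e and Pnpla1 are high in air replicate 3 and O3 replicate 4, like Krt13 and Acta1, while Pnpla2 is highest in anti-IL-17A replicate 1, where Ucp1 but neither Krt13 nor Acta1 is high.

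Pnpla8 and Pla2g6 encode calcium-independent A2 enzymes, the former of mitochondria and peroxisomes. Pnpla8 read 8.80 to 9.16 in air and 8.64 to 8.92 after O3, with overlap and a difference of -0.21 (SE 0.18). Pla2g6 was near background at 4.43 to 4.86 over all arrays, with a difference of -0.04 (SE 0.11). Pnpla6, known as neuropathy target esterase, and its relative Pnpla7, both lysophospholipases, read 5.27 to 6.09 and 5.12 to 6.11. Each had its highest value in anti-IL-17A replicate 1, and their O3 differences were 0.17 (SE 0.15) and -0.09 (SE 0.19). Pnpla3, a lipid droplet enzyme known from human fatty liver, read 4.35 to 5.22 with a difference of -0.17 (SE 0.17), and Pnpla5, also of lipid droplets, was not above background on any array.

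Pla2g16, an enzyme abundant in adipocytes, now called Plaat3, had the most negative O3 difference of the 38 genes. It read 8.12, 7.85, 8.57 and 7.67 in air and 7.54, 7.44, 7.14 and 7.73 after O3. The groups overlapped only through air replicate 4 and O3 replicate 4. The difference of -0.59 (SE 0.21, 95% confidence interval -1.06 to -0.12) had a limma adjusted p of 0.209 and an exact permutation p of 0.0571. The anti-IL-17A arrays, at 8.13, 8.06 and 7.53, and the WT array, at 7.86, lay within the air range or just below it. Without the 3 arrays high in Ucp1 the O3 difference was -0.51 (limma adjusted p = 0.209). The adipocyte genes had a median O3 difference of -0.27. Their mean was highest in air replicate 3, at 7.39, as was Pla2g16, and 7.04 in anti-IL-17A replicate 1, where Pla2g16 read 8.13. It was lowest in anti-IL-17A replicate 2, at 5.48, where Pla2g16 read 8.06. In O3 replicate 4 it was 6.66, where Pla2g16 read 7.73. The part of adipocytes in the Pla2g16 signal was not tested.

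Pla2g15, the lysosomal A2 enzyme with which alveolar macrophages degrade surfactant phospholipid, was dim on all arrays. It read 4.94, 4.69, 4.87 and 4.75 in air and 4.74, 4.66, 4.65 and 4.60 after O3. The groups overlapped slightly, and the difference was -0.16 (SE 0.08, limma adjusted p = 0.386, exact permutation p = 0.0571). Of 6 alveolar macrophage genes listed, 4 were measured, and none was called between O3 and air. Their median O3 difference was 0.14, and their part in the Pla2g15 signal was not tested.

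In the phospholipase D family, Pld1 and Pld2 are the enzymes that make phosphatidic acid from phosphatidylcholine. Pld1 read 8.50 to 9.03 in air and 8.37 to 8.81 after O3, a difference of -0.15 (SE 0.17). For Pld2, its 2 probe sets gave O3 differences of 0.39 (SE 0.24) and -0.03 (SE 0.20), so its value depends on the probe set used. The brighter probe set read 5.50, 5.56, 6.13 and 5.65 in air and 6.31, 5.46, 6.03 and 6.59 after O3, with overlap.

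Pld3 and Pld4 encode lysosomal nucleases rather than active phospholipases. Pld4, an enzyme of dendritic and other myeloid cells, read 6.35, 6.17, 6.11 and 5.68 in air and 5.61, 5.86, 5.08 and 6.02 after O3. Air replicate 4 lay inside the O3 range, and the difference was -0.44 (SE 0.27, limma adjusted p = 0.487). Its highest array was anti-IL-17A replicate 2 at 6.69, against 5.92 and 5.55 in replicates 1 and 4 and 5.76 in the WT array. The mean of all 5 plasmacytoid dendritic cell genes was also highest there, at 6.95 against 6.23 to 6.64 elsewhere. So was that of monocyte and interstitial macrophage genes, at 7.41 against 5.83 to 6.90. Neutrophil genes had their highest mean in air replicate 1, at 9.78, and alveolar macrophage genes in O3 replicate 4, at 7.38. The part of any of these cells in the Pld4 signal was not tested. Pld3 read 6.92 to 7.27 in air and 6.80 to 7.42 after O3, a difference of 0.11 (SE 0.18). Pld6, an enzyme of the mitochondrial surface, read 4.65 to 5.20 over all arrays, and Pld5, for which no enzyme activity is known, was not above background on any.

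The acyl-protein thioesterases remove fatty acids from proteins, and Lypla1 and Lypla2 also act on lysophospholipids. Lypla1 read 7.85 to 8.29 over all 12 arrays and with an O3 difference of -0.03 (SE 0.11). Lypla2 read 4.61 to 5.08, with a difference of 0.12 (SE 0.10). Lyplal1 read 6.26, 6.03, 6.07 and 6.31 in air and 5.47, 5.96, 5.83 and 6.28 after O3, with overlap and a difference of -0.28 (SE 0.30). Its lowest value, 4.59, was in anti-IL-17A replicate 1.

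Both antibodies were compared in O3-exposed db/db mice, to ask whether blocking this cytokine changed the enzymes. No member was called by limma, and 0% of all genes were, at an adjusted p under 0.05 or under 0.1. At an unadjusted p under 0.05 there was 1 member, Pla2g2a, and 1002 of all genes. The arrays did not overlap for 0 of the 38 members, against 4.05% of all genes (2.63% higher, 1.42% lower). The highest difference was 0.44 for Pla2g16 (SE 0.23, limma adjusted p = 0.833) and the lowest -0.66 for Pla2g4e (SE 0.58), whose isotype group held the array that reads 5.96. Without the 3 arrays high in Ucp1 that of Pla2g4e was -0.12 (SE 0.08) and was not called by limma. The confidence interval lay within 1 log2 unit of 0 for 30 members, so changes beyond that size remain possible for the other 8.

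Of the anti-IL-17A arrays, 2 often held the highest value. Replicate 1 was the highest of all 12 arrays for 12 members, against 33.4% of all genes. Replicate 2 was the highest for 6 members, Lypla1, Pla2g2a, Pla2g4a, Pla2g7, Pld4 and Pld5, against 8.49% of all genes. Over the 12 arrays 12 members had a range above 1 log2 unit, as did 31.7% of all genes.

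The anti-IL-17A group was also set against air, a comparison that shares its air arrays with the first. No member was called by limma and 0% of all genes were, while 1 member, Pla1a, and 3618 of all genes had an unadjusted p under 0.05. Pla1a was also the 1 member without overlap, against 12.1% of all genes (7.1% higher, 4.96% lower), and it was higher by 1.63 (SE 0.53, limma adjusted p = 0.216, exact permutation p = 0.0286 over 35 splits, the smallest possible). The count of 0 depended on replicate 2 of the anti-IL-17A group. Without that array, 6 members passed in limma, as did 12.7% of all genes. Pla1a, Pla2g12a and Pnpla6 were higher and Pla2g4a, Pla2g7 and Pnpla8 lower. The group then held only replicates 1 and 4, and replicate 1 is the array that stood apart. It was the highest of all 12 arrays for Pla2g12a (8.19) and Pnpla6 (6.09) and the lowest for Pla2g4a (7.50) and Pnpla8 (8.14). For Pla1a and Pla2g7 it held neither extreme. With array weights, which lower the influence of arrays that stand apart, 8 members passed (4 higher, 4 lower) and so did 26.6% of all genes.

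The WT array was compared with the db/db O3 arrays, with no replicate of its own, so that limma assumes it to vary like the other groups. No member was called by limma, and 0% of all genes were, with 0 members and 713 of all genes at an unadjusted p under 0.05. The WT array lay outside the range of the 4 db/db O3 arrays for 14 members, against 39.9% of all genes. It was above them for 7 members (17.7% of all genes), Lyplal1, Pla2g16, Pla2g2a, Pla2g2c, Pla2g4d, Pla2g7 and Pnpla7, and below them for 7 (22.1%), Lypla2, Pla2g12a, Pla2g1b, Pla2g3, Pla2g4e, Pla2g5 and Pnpla3. The differences ran from -0.83 for Pla1a (SE 0.78) to 0.74 for Pla2g7 (SE 0.77).

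Genes that work beside these enzymes were counted in 4 lists of 72 genes, and none was called by limma in any of the 4 comparisons. Of 25 other phospholipases and lysophospholipases measured, 5 had an unadjusted p under 0.05 between O3 and air, as did 3294 of all 21759 genes, and the median difference was 0.00. Plb1, phospholipase B, had the smallest p and differed by -0.49 (SE 0.14, adjusted p = 0.118), without overlap of the arrays. Of 12 receptors for lysophospholipids and platelet-activating factor 2 had such a p, and Lpar3, a receptor for lysophosphatidic acid, differed by -0.58 (SE 0.15, adjusted p = 0.104), also without overlap. Of 16 partners of Pnpla2 in fat breakdown 1 had such a p, and Plin2, the coat protein of lipid droplets, differed by 0.70 (SE 0.23, adjusted p = 0.173). Of 19 genes of phosphatidic acid and diacylglycerol metabolism 0 had such a p, and Lpin3, a phosphatidic acid phosphatase, differed by 0.20 (SE 0.13, adjusted p = 0.517).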

How the data were processed

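Lung RNA was measured on 12 mouse gene arrays. The authors' processing notes list oligo, RMA and limma, with versions not given in the sources used here. The deposited values are log2 RMA signals, that is, background-corrected, quantile-normalized and summarized by the authors for each of 35556 probe sets. Both deposited tables hold the same signals (largest difference 0), and the authors' own comparison in one of them (log2 fold change, p-value and score columns) was not used. Of the probe sets, 25254 carry a symbol. For each of 21759 genes the brightest probe set by its 12-array mean was kept, with no filter on dim ones. The genome build is not given in the sources used here.

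Limma 3.58.1 in R 4.3.3 was fitted to all 12 arrays with 1 mean per group. Tests were two-sided with 8 residual degrees of freedom, p-values were adjusted over all genes (Benjamini-Hochberg), and a gene was called under 0.05. An exact permutation test over all splits of the arrays was run for single genes. The fit was tested on simulated data. The number of arrays limits the precision. The members and lists were chosen with earlier results of these data known. Every member is named, with full statistics for those called or without overlap between air and O3. Other members given full statistics were chosen after their values were seen, and of each related list the gene with the smallest p is named. In 16 lists of cell type genes, of which squamous epithelium and skeletal muscle were added after the values were seen, no gene was called between O3 and air. Alternatives covered normalization, the filter, the probe set, the variance model, weights, the arrays fitted, a replicate block, the threshold and leaving out each array.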

Additional observations from a re-analysis of the deposited data

Results flagged for a closer look

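Of 76 groups of 4 arrays, 6 held a value far from the other 3 by Dixon's test at the 95% level, which chance flags in about 1 of 20 groups. Pla2g4e read 5.96 in O3 replicate 4 (others 3.48 to 3.59) and 4.80 in air replicate 3 (others 3.40 to 3.42). Pnpla1 read 5.82 in O3 replicate 4 (others at most 4.29) and 5.10 in air replicate 3 (others 4.21 to 4.34). Pnpla2 read 8.25 in air replicate 3 (others 7.28 to 7.37). Pla2g2f, which was not above background, read 3.08 in O3 replicate 3 (others 3.41 to 3.47).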

How the results depend on the processing

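The O3 minus air count of 0 members called stayed at 0 in 20 of 31 alternatives. It was 1 with array weights, with only the groups compared, with the replicate block, with an adjusted p under 0.1 and with both groups alone and the block, in each case Pla1a. With both groups alone and 1 array left out in turn it was 0 to 2, an alternative added after seeing the data: 0 without air replicate 2 or 4, 2 without O3 replicate 2 (Pla1a and Pla2g12a) and 1 otherwise. Anti-IL-17A O3 minus air gave 8 with array weights and 0 to 6 over arrays left out, with 6 without anti-IL-17A replicate 2. The cause was not tested. The estimation of array weights gave convergence warnings. Anti-IL-17A minus isotype gave 0 in all 19 alternatives and WT minus db/db 0 in all 17.

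The replicate numbers are not known to pair arrays. The deviations of same-numbered O3 and air arrays correlated at 0.11, 0.29, -0.20 and -0.41. Those of anti-IL-17A and O3 arrays numbered 1, 2 and 4 correlated at 0.43, 0.45 and -0.13. For numbers 1 and 2 the same-numbered O3 array was the best match. Against air arrays the values were -0.17, -0.16 and 0.12. Whether the numbers mark a shared run was not tested. With the replicate block, Pla1a had a limma adjusted p of 0.0353, and 238 genes were called against 230 without it.

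Over all 31 alternatives the Pla1a difference was 1.59 to 2.26 (limma adjusted p 0.00418 to 0.262). It was past the threshold in 11, including the alternative that raised the threshold to 0.1. The Pla2g1b and Pla2g16 differences kept their sign, with limma adjusted p-values of 0.1 to 0.648 and 0.0520 to 0.450. The count above background on all arrays was 21, and 14 to 26 with other background levels, normalization or probe sets. The number of arrays limits how small a change could be seen.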
